A study of Mus musculus with 29 samples.

Results

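The T cell receptor entries of 8 RNA-seq tables from mouse pro-B cells are described here. An entry was taken as a member if its name began with TCRA, TCRB, TCRG or TCRD, or with Tra, Trb, Trd or Trg followed by a segment letter (v, d, j or c) with a digit, a hyphen, a low line or nothing more behind it. This gave 240 of the 24732 entries in the tables aligned to the mouse genome build mm9, with 164 from the alpha, 56 from the beta, 11 from the gamma and 9 from the delta locus, and 268 of the 25588 entries in the tables aligned to mm10. The mm9 tables hold 3 libraries of Pax5(+/+) pro-B cells, labelled wild-type, and 2 libraries of Pax5(-/-) pro-B cells, and their comparison asks which transcripts depend on Pax5, the transcription factor that commits lymphoid progenitors to the B cell lineage. The mm10 tables hold 3 libraries of pro-B cells from 3-week-old mice labelled Pax5(+/+) Meox2-cre, which carry a Cre recombinase knocked into the Meox2 locus and were sorted and pooled.

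All 8 libraries were made from polyadenylated RNA of cells sorted ex vivo from C57BL/6 mice. The Pax5(-/-) cells were sorted through a gate (among others B220+, Kit+ and Ly6D+) that differs from that of the wild-type pro-B cells. The 2 genotypes therefore differ in the gate as well as in the gene, and these differences cannot be told apart. The age of the mice of the mm9 tables is not given in the sources used here, and the supplementary list of the study gives the Meox2-cre mice as Pax5(+/-) rather than Pax5(+/+). Nothing states that the libraries of a genotype came from separate mice, so p-values measure the spread between these libraries, which may be technical.

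T cell receptor genes are assembled in developing T cells from separate variable (V), diversity (D) and joining (J) segments by the Rag recombinase, and the joined exon is spliced to a constant (C) region. The alpha and gamma loci hold V and J segments, the beta and delta loci V, D and J segments. The beta locus carries 2 consecutive clusters, each with a D segment, a set of J segments and a constant gene, named Cβ1 and Cβ2. Unrearranged segments can also be transcribed, and B cells normally rearrange immunoglobulin genes and not T cell receptor genes.

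The Jβ2 segments and the Cβ regions are shown because most T cell receptor reads of the series fell on them. The 7 Jβ2 segments lie on the plus strand of chromosome 6 at chr6:41492753-41493855 (mm9, GENCODE positions), upstream of the Cβ2 gene at chr6:41496729-41498180. Capitals mark the first match to TTNGGNNNNGGN, the letters that encode the conserved Phe-Gly-X-Gly turn of a J segment, searched on the plus strand only.

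Jβ2-1: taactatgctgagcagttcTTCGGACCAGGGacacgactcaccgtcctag
Jβ2-2: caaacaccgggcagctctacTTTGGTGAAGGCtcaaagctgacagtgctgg
Jβ2-3: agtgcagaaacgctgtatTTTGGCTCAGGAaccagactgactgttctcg
Jβ2-4: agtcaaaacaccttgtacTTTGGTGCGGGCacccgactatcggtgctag
Jβ2-5: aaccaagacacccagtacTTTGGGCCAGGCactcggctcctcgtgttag
Jβ2-6: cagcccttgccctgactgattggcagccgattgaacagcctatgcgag
Jβ2-7: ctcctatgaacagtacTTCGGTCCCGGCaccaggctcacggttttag

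The motif was found in 11 of the 14 Jβ segments. Jβ2-6, which RefSeq (GRCm38.p6) classes as a pseudogene segment, is without these letters, as are Jβ1-6 and Jβ1-7. The lengths of the 7 Jβ entries with reads, recovered from the TPM values, equalled the lengths of these sequences in 7 of 7 cases.

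The coding sequences of Cβ1 (GENCODE Trbc1, chr6:41488217-41489346, 3 exons) and Cβ2 (GENCODE Trbc2, 4 exons) share most of their length. Their first exons, 375 bases each, differ at 1 position, C260A, counted from the first base of the exon and with the Cβ1 base first. The 51 bases around this position are shown with the differing base in capitals (Cβ1 at chr6:41488451-41488501 and Cβ2 at chr6:41496963-41497013).

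Cβ1: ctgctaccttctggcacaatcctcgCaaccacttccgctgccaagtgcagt
Cβ2: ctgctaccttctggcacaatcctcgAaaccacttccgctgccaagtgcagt

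Of the 50-base windows in the joined exons, 61.1% of those of Cβ1 and 60.0% of those of Cβ2 are identical in the other gene. The reads were 50 bases long and the counter by default does not count reads that map to several places. These windows were taken from GENCODE exons of 512 and 521 bases, whereas the counted entries had recovered lengths of 737 and 692 bases, so the share within the counted entries was not computed. The split between Cβ1 and Cβ2 is uncertain.

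The deposited values are TPM, reads per base of an entry scaled to the same total in every library. Since TPM values are whole numbers of reads divided by length, reads could be recovered for 17365 of 17368 entries above 0 in the mm9 tables. Counted reads were at least 17117821, 18360492 and 18760512 for Pax5(+/+), 14420225 and 25027895 for Pax5(-/-), and 19950536 to 20649236 for Meox2-cre pro-B cells. The Pax5 transcript itself was at 342, 386 and 391 TPM in Pax5(+/+) and at 43.0 and 39.1 TPM in Pax5(-/-) pro-B cells, lower in both libraries labelled Pax5(-/-). Of 10 genes listed as pro-B cell markers, 9 were lower in Pax5(-/-) cells (adjusted p below 0.05, as were 21.5% of all entries tested) and all were detected in every library.

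T cell receptor transcripts were rare in pro-B cells of both genotypes and were more abundant in the libraries without Pax5. The 240 entries together amounted to 13.3, 13.6 and 10.4 TPM in the Pax5(+/+) libraries and to 229.9 and 179.8 TPM in the Pax5(-/-) libraries. In reads these were 44, 42 and 26 against 539 and 998. Both Pax5(-/-) libraries lay far above the 3 Pax5(+/+) libraries, yet even there the T cell receptor entries held no more than 0.0230% of all TPM.

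Most segments gave no read at all. In the 5 mm9 libraries 213 of the 240 entries were listed at 0 throughout, among them all 59 Jα, both Dβ, all 5 Vδ and both Dδ entries, all 4 Jγ entries and the entry TCRB_Eb. Of the 27 entries with a read, 7 had reads in both genotypes, 15 only in Pax5(-/-) and 5 only in Pax5(+/+) cells. The share of all entries with reads in a single genotype is not given here, so these counts are a description only. A count of 0 over the 2 Pax5(-/-) libraries allows up to 3 reads, or 0.0760 reads per 1000000 counted reads (RPM), and over the 3 Pax5(+/+) libraries up to 0.0553 RPM. Such limits and all intervals given here cover counting error only, since reads from amplified libraries are not independent molecules. The Dβ segments are 12 and 14 bases long, much shorter than a read.

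By locus, the genotypes were furthest apart in the beta chain. The beta entries summed to 12.7, 12.6 and 8.41 TPM in Pax5(+/+) and to 224 and 178 TPM in Pax5(-/-) pro-B cells, a 17.9-fold higher mean. The groups did not overlap (exact permutation test, two-sided, p = 0.1, the smallest p that 10 splits of 5 libraries can give, adjusted p = 0.4 over 4 loci). The alpha entries summed to 0.613, 1.04 and 1.78 TPM against 2.49 and 1.60 TPM, so the groups overlapped (exact p = 0.3, adjusted p = 0.533). The gamma locus gave 1 read in Pax5(+/+) replicate 3 and 2 reads in Pax5(-/-) replicate 2 (exact p = 0.7, adjusted p = 0.7). The delta locus gave 1 read in Pax5(-/-) replicate 1 and none elsewhere (exact p = 0.4, adjusted p = 0.533). Its mm9 entries include no constant region, the class that held most of the beta reads.

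**Figure D1:**
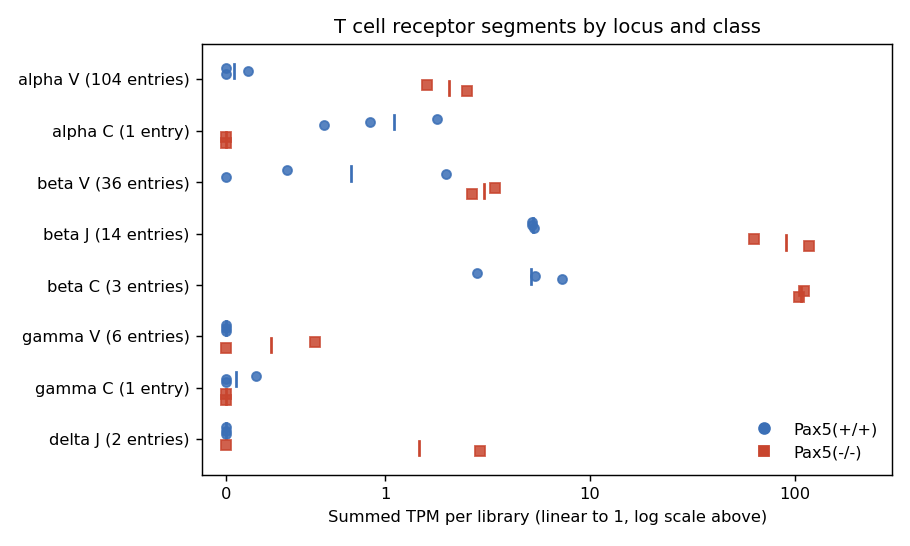
Summed TPM of the T cell receptor entries by locus and segment class, 1 point per library and a bar at the mean (axis linear to 1 TPM and logarithmic above), for the 3 Pax5(+/+) and 2 Pax5(-/-) libraries. Classes at 0 in all 5 libraries are left out. The beta J and beta C sums lie at 2.82 to 7.32 TPM in Pax5(+/+) and at 63.1 to 118 TPM in Pax5(-/-) pro-B cells, and the single alpha C entry is at 0 in both Pax5(-/-) libraries.

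Divided by class, the constant and J entries made up nearly all of the beta signal. The 3 Cβ entries summed to 7.32, 5.37 and 2.82 TPM in Pax5(+/+) and to 104 and 111 TPM in Pax5(-/-) cells, and the 14 Jβ entries to 5.33, 5.23 and 5.21 against 118 and 63.1 TPM. Both classes were separated between the genotypes (exact p = 0.1 each, adjusted p = 0.2 over the 8 classes with reads). The 36 Vβ entries, in contrast, summed to 0, 1.97 and 0.384 TPM in Pax5(+/+) and to only 2.64 and 3.44 TPM in Pax5(-/-) cells (exact p = 0.2, adjusted p = 0.32).

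The small contribution of V segments can also be read as a share of the beta reads. In Pax5(-/-) cells 6 of 532 beta reads (1.13%, Wilson 95% interval 0.518 to 2.44%) and 14 of 989 (1.42%, 0.845 to 2.36%) fell on a Vβ entry. In Pax5(+/+) cells these were 0 of 42 (0%, 0 to 8.38%), 6 of 38 (15.8%, 7.44 to 30.4%) and 1 of 19 (5.26%, 0.935 to 24.6%). The share in Pax5(+/+) replicate 2 lay above both Pax5(-/-) shares beyond these intervals, and those of the other two Pax5(+/+) libraries did not. A read of this length that spans a V-D-J junction has no full match in the unrearranged genome, and how many such reads were lost was not tested.

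By reads, Cβ2 was the main T cell receptor transcript in all 5 libraries. The entry TCRB_Cb2 was at 7.32, 5.20 and 2.65 TPM in Pax5(+/+) libraries (40, 29 and 15 reads) and at 102 and 110 TPM in Pax5(-/-) libraries (478 and 930 reads). Both Pax5(-/-) libraries thus lay far above the highest Pax5(+/+) value. The Pax5(+/+) mean was 5.06 ± 2.34 TPM (SD, n = 3), against 106 ± 5.55 TPM (SD, n = 2) without Pax5, a log2 change of 4.36 with a standard error of 0.34 on the log2(TPM + 0.5) scale (limma, adjusted p = 1.1e-04). By RPM pooled over libraries the ratio was 23.1.

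Far fewer counted reads fell on the entry of the neighbouring Cβ1, with the split between the genes uncertain as stated above. TCRB_Cb1 was at 0, 0.168 and 0.166 TPM in Pax5(+/+) (0, 1 and 1 read) and at 2.01 and 0.890 TPM in Pax5(-/-) cells (10 and 8 reads). It passed the test (log2 change 1.62, standard error 0.37, limma adjusted p = 0.012), but its mean stayed below 5 TPM in both genotypes, and the call was lost without the filter on low values (adjusted p = 0.0742). Without Pax5(-/-) replicate 1 it fell under the filter. TCRBC1, a further Cβ entry of the mm9 annotation, was listed at 0 in all 5 libraries, and whether its position overlaps that of TCRB_Cb1 is not given in the sources used here.

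The J segments upstream of Cβ2 carried reads as well, whereas those upstream of Cβ1 held a single read. The 7 Jβ2 entries held 2, 2 and 2 reads in the Pax5(+/+) and 38 and 36 reads in the Pax5(-/-) libraries. That read fell on Jβ1-5 in Pax5(-/-) replicate 2. Both clusters were counted on entries of similar length, 47 to 51 bases for Jβ2 and 45 to 54 bases for Jβ1.

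**Figure D2:**
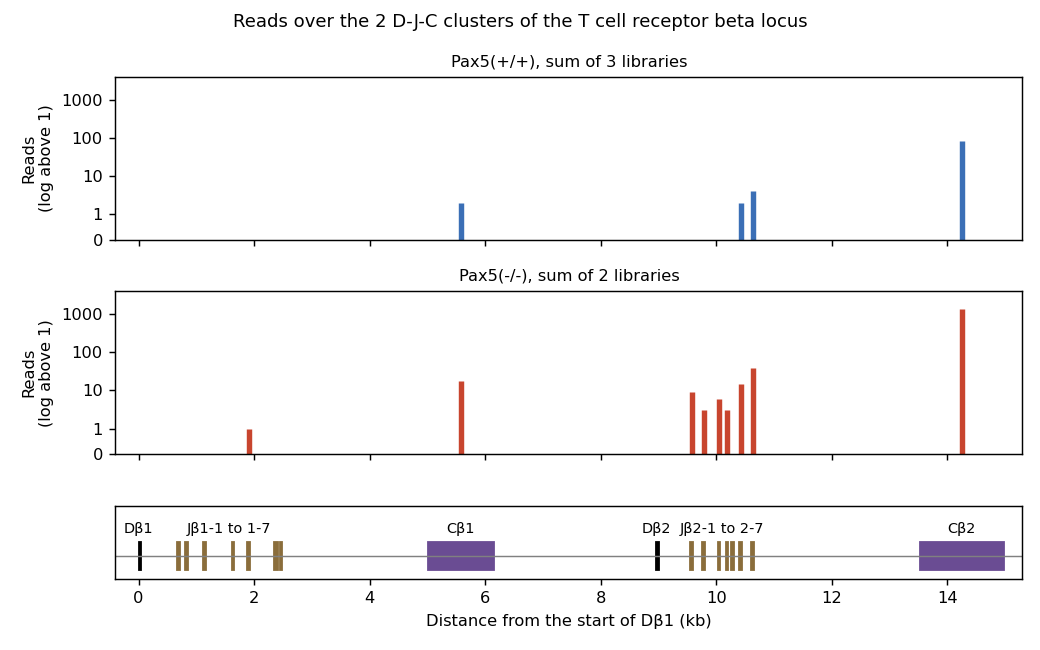
Reads per segment over both D-J-C clusters of the beta locus, summed over the 3 Pax5(+/+) libraries (top) and the 2 Pax5(-/-) libraries (middle), against the distance in kb from the start of Dβ1 (read axis linear to 1 and logarithmic above). The lower track draws the segments to scale, J segments widened to be visible. In Pax5(-/-) cells 6 of the 7 Jβ2 segments and Cβ2 carry reads, whereas the Jβ1 cluster holds 1 read.

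Within the Jβ2 cluster the last 2 segments before Cβ2 held the most reads. Jβ2-7, the segment nearest to Cβ2 at 2874 bases from its first exon, was at 2.69, 2.64 and 5.21 TPM in Pax5(+/+) (1, 1 and 2 reads) and at 63.0 and 31.4 TPM in Pax5(-/-) cells (20 and 18 reads). It rose by 3.55 on the log2 scale (standard error 0.37, limma adjusted p = 3.8e-04), or 13.1-fold in RPM pooled over libraries. The TPM of these entries rests on few reads, since 1 read on so short an entry is worth 2.59 to 2.69 TPM on Jβ2-6 and Jβ2-7 in the Pax5(+/+) libraries that held 1.

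Jβ2-6, the pseudogene segment, ranked second. It was at 2.64, 2.59 and 0 TPM in Pax5(+/+) (1, 1 and 0 reads) and at 24.7 and 12.0 TPM in Pax5(-/-) cells (8 and 7 reads), a log2 change of 3.39 with a standard error of 0.78 (limma adjusted p = 0.013). This call was lost with robust moderation (adjusted p = 0.0521), without the filter on low values (0.180), and without Pax5(-/-) replicate 1 (0.148) or Pax5(-/-) replicate 2 (0.0900).

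The segments farther upstream had no read in Pax5(+/+) cells. Jβ2-1 was at 14.8 and 6.56 TPM in Pax5(-/-) cells (5 and 4 reads), in pooled RPM 4.12-fold the limit of 3 reads over the Pax5(+/+) libraries. Jβ2-3 was at 9.07 and 5.02 TPM (3 and 3 reads), 2.75-fold that limit. The counting error of the Pax5(-/-) reads is not included in these folds, so they are not minimum values. Jβ2-2 (2.90 and 3.21 TPM) and Jβ2-4 (3.02 and 3.35 TPM) had 1 read in replicate 1 and 2 reads in replicate 2, at the limit, so no fold is given. Jβ2-5 was at 0 in all 5 libraries although its sequence holds the J motif. The order of the 7 segments by reads was the same in both Pax5(-/-) libraries.

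The Pax5(-/-) libraries differed from each other in the balance of J and C. Jβ2 reads were 7.36% of Jβ2 and Cβ2 reads in replicate 1 (38 of 516, Wilson 95% interval 5.41 to 9.95%) and 3.73% in replicate 2 (36 of 966, 2.70 to 5.12%), and these intervals do not overlap. In Pax5(+/+) cells the shares were 4.76%, 6.45% and 11.8%, from 42, 31 and 17 reads, with intervals that include both values of the Pax5(-/-) libraries. The TPM of a J entry is further raised against that of a C entry by its shortness, because a read that reaches beyond the J segment is counted in full.

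**Figure D3:**
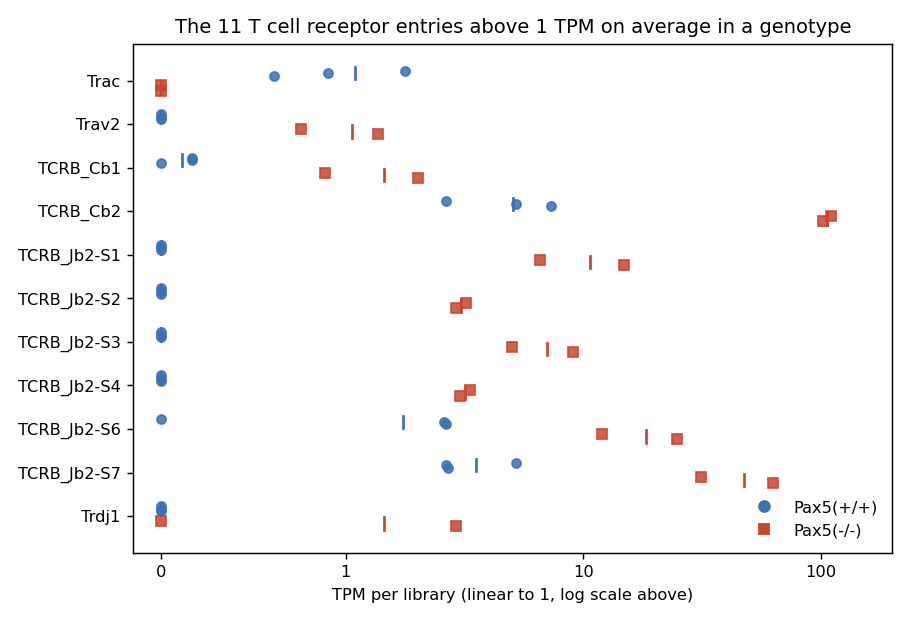
TPM of the 11 T cell receptor entries above 1 TPM on average in either genotype, 1 point per library and a bar at the mean (axis linear to 1 TPM and logarithmic above). The 8 beta entries lie higher in both Pax5(-/-) libraries than in every Pax5(+/+) library, Trac lies lower, and Trdj1 is above 0 in a single library.

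Trac, the constant region of the alpha chain (chr14:54840196-54842772, plus strand, mm9), went the opposite way. It was at 0.613, 0.902 and 1.78 TPM in Pax5(+/+) libraries (2, 3 and 6 reads) and at 0 in both Pax5(-/-) libraries. In RPM pooled over libraries Pax5(+/+) cells were at 2.67-fold the limit of 3 reads over the Pax5(-/-) libraries. The counting error of the Pax5(+/+) reads is not included in this fold. The entry passed the test as lower in Pax5(-/-) cells (limma adjusted p = 0.0137), but not without the filter on low values (0.0879) or without Pax5(-/-) replicate 1 (0.0782) or replicate 2 (0.0868), and without Pax5(+/+) replicate 3 it fell under the filter and was not tested.

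Among the 104 Vα entries, 6 had reads. Trav2 (chr14:53186968-53187726, mm9) was at 0 in Pax5(+/+) and at 1.37 and 0.757 TPM in Pax5(-/-) cells (3 reads in each). In pooled RPM this was 2.75-fold the limit of 3 reads, without the counting error of the Pax5(-/-) reads. Trav2 passed the test (limma adjusted p = 0.0075), and it fell under the filter without Pax5(-/-) replicate 1. The Vα entries together summed to 0, 0.139 and 0 TPM in Pax5(+/+) and to 2.49 and 1.60 TPM in Pax5(-/-) cells (exact p = 0.1, adjusted p = 0.2). Trav15-2-dv6-2, Trav14d-1, Trav6-7-dv9 and Trav14-2 accounted for the other reads in Pax5(-/-) cells, 1 or 2 in a library, and Trav14-3 for the only read in Pax5(+/+) cells. Trav14 members are close copies of each other, so reads between them are uncertain. Vα reads in Pax5(-/-) cells thus occurred without a single Cα or Jα read.

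Of the Vβ entries, Trbv13-2 (chr6:41071416-41071831, mm9) had the highest mean TPM in Pax5(-/-) cells, though it was the highest in neither library. It was at 0, 0 and 0.384 TPM in Pax5(+/+) and 0.929 and 1.03 TPM in Pax5(-/-) libraries (1 read against 2 and 4). TCRBV17S1P followed with 0.429 and 1.19 TPM (1 and 5 reads) and 0 in Pax5(+/+) cells. TCRBV22S1P, with 3 reads, and TCRBV21S1P, with 3 reads, were each seen in a single Pax5(-/-) library. Trbv1 and TCRB_Vb14 led in Pax5(+/+) cells with 0.710 and 0.680 TPM (2 reads each), all in replicate 2, and Trbv26 and TCRBV28S1P had 1 read each in the same library. No Vβ entry reached a mean of 1 TPM in a genotype over all libraries, so none was tested there. Apart from the fit without a filter, 3 of them were tested under single alternatives. Trbv13-2 passed with median-ratio scaling (limma adjusted p = 0.0248), having entered through Pax5(-/-) cells. TCRBV17S1P entered only without Pax5(-/-) replicate 1, and TCRBV22S1P only without Pax5(-/-) replicate 2. Each then rested on the lone Pax5(-/-) library in which it was higher, so those fits say nothing about the genotype. With Pax5(-/-) replicate 1 left out, Trbv13-2 was tested and did not pass (adjusted p = 0.0990).

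Few reads fell on the gamma and delta entries of the mm9 tables. No delta constant region was among these entries, so reads on it could not be counted, and gamma had 1 constant entry. Tcrg-C had 1 read in Pax5(+/+) replicate 3 (0.190 TPM), Tcrg-V5 had 2 reads in Pax5(-/-) replicate 2 (0.559 TPM), and Trdj1 had 1 read in Pax5(-/-) replicate 1 (2.90 TPM). Trdj1 was tested because this read lifted its mean above 1 TPM, and it did not pass (limma adjusted p = 0.169). It passed when Pax5(-/-) replicate 2 was left out (adjusted p = 0.0056), where the lone library is assumed to vary like the others.

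In total 11 of the 240 entries exceeded a mean of 1 TPM in a genotype and were tested. Among all 12066 entries tested, 15.6% had an adjusted p below 0.05 and were higher and 21.5% were lower in Pax5(-/-) cells, with a median log2 change of -0.12. Of the 11, 9 were higher (8 beta entries and Trav2), 1 was lower (Trac) and 1 did not pass (Trdj1). With a change above 3-fold and a mean above 5 TPM in addition, the 5 entries TCRB_Cb2, Jβ2-1, Jβ2-3, Jβ2-6 and Jβ2-7 were called higher and none lower, against 2.83% and 3.34% of all entries tested. Both Pax5(-/-) libraries lay above all Pax5(+/+) libraries for the same 9 entries, as they did for 26.1% of all entries tested, and below them for Trac, as for 37.4%. Only TCRB_Cb2, Jβ2-6 and Jβ2-7 exceeded 1 TPM in both genotypes, however. The other 8 entered the test through the genotype in which they were high, so that this count is a description and not a measure of how T cell receptor entries behave. In a fit on the recovered reads (limma-voom, added after the data had been seen) Jβ2-2 and Jβ2-4 did not pass (adjusted p = 0.0790 each), and the other 8 kept their call and direction, where 20.3% of all entries tested were higher and 18.9% lower.

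Of the chains that assemble with the T cell receptor, the zeta chain alone reached the level for the test. The receptor is brought to the surface by the CD3 chains, CD3δ, CD3ε and CD3γ, together with the zeta chain encoded by Cd247, and immature T cells pair the beta chain with pre-Tα, encoded by Ptcra. Cd3e was at 0.0882, 0.432 and 0.341 TPM in Pax5(+/+) and at 0 in both Pax5(-/-) libraries. Cd3d was at 0.111 to 0.431 TPM over the 5 libraries, Cd3g at 0.120 to 0.364 TPM and Ptcra at 0 to 0.286 TPM, and none of the 4 reached the level for the test. Cd247, in contrast, was at 0.248, 0.917 and 0.372 TPM in Pax5(+/+) and at 10.6 and 12.3 TPM in Pax5(-/-) cells (log2 change 3.62, standard error 0.32, limma adjusted p = 2.0e-04). It, too, entered the test only through Pax5(-/-) cells.

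**Figure D4:**
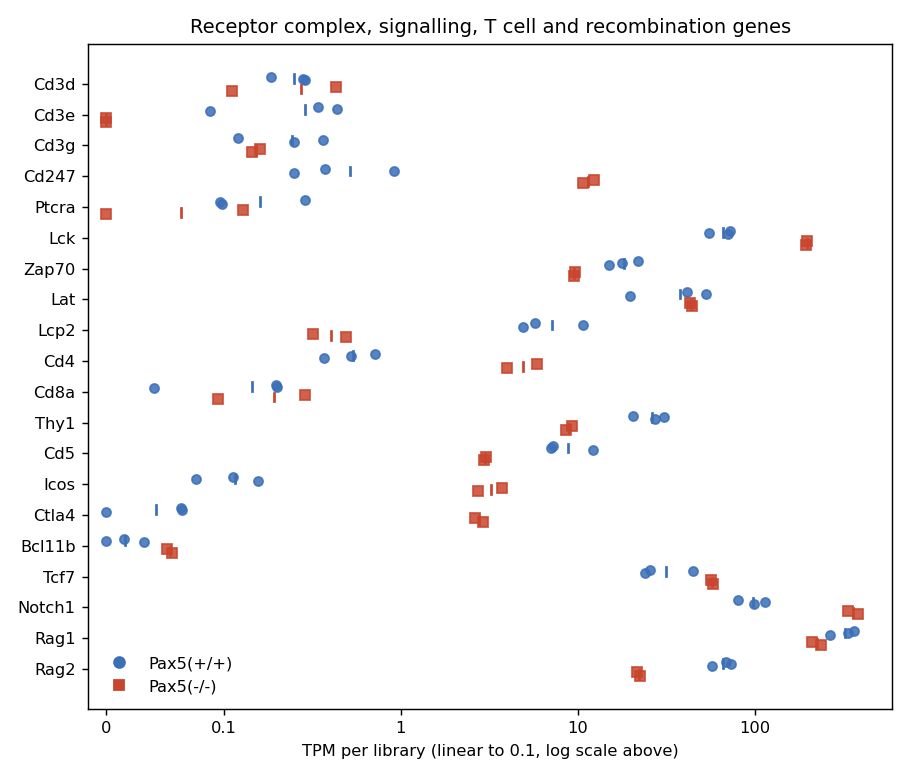
TPM of genes of the receptor complex, its signalling, T cell identity and V(D)J recombination in the 3 Pax5(+/+) and 2 Pax5(-/-) libraries, 1 point per library and a bar at the mean (axis linear to 0.1 TPM and logarithmic above). Cd247, Lck, Cd4, Icos, Ctla4 and Notch1 lie higher in both Pax5(-/-) libraries, Zap70, Lcp2, Thy1, Cd5 and Rag2 lie lower, and Cd3e is at 0 in both.

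Of 35 pathway genes, 26 were tested, of which 8 were higher (30.8%) and 11 lower (42.3%) in Pax5(-/-) cells, beside 15.6% and 21.5% of all entries tested, with a median log2 change of 0.04 beside -0.12. Without Pax5(-/-) replicate 1 these counts were 4 and 6, and without Pax5(-/-) replicate 2 they were 5 and 7. Of the 8 signalling genes tested, 2 rose and 4 fell, beside the 15.6% and 21.5% over all entries. Lck, the kinase that phosphorylates the CD3 chains, rose from 70.9, 54.8 and 72.2 TPM to 196 and 198 TPM (limma adjusted p = 1.8e-04), and Trat1, an adaptor associated with the receptor, from 0, 0 and 0.179 TPM to 2.38 and 0.599 TPM (limma adjusted p = 0.0234). Trat1 entered the test only through Pax5(-/-) cells, where replicate 1 alone exceeded 1 TPM. Zap70, the kinase recruited to the zeta chain, fell from 14.9, 17.7 and 21.9 TPM to 9.51 and 9.59 TPM (limma adjusted p = 0.0106), and Lcp2, an adaptor downstream of Zap70, fell from 4.88, 10.7 and 5.70 TPM to 0.487 and 0.318 TPM (limma adjusted p = 6.7e-04). Cd5 and Cd2 also fell. Lcp2 and Cd2 were below 1 TPM on average in Pax5(-/-) cells and entered the test only through Pax5(+/+) cells. Fyn and Lat did not pass the test (adjusted p = 0.368 and 0.531).

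The recombination machinery was present in both genotypes. Rag1 was at 267, 338 and 363 TPM in Pax5(+/+) and at 236 and 211 TPM in Pax5(-/-) cells, a decrease by 0.52 on the log2 scale (limma adjusted p = 0.0264), and the call held in 7 of 14 alternatives (adjusted p up to 0.225). Rag2, its partner, fell from 57.4, 73.2 and 68.8 TPM to 22.5 and 21.7 TPM (limma adjusted p = 1.8e-04). Lig4 of the end-joining machinery fell and Xrcc5 rose, whereas Xrcc6 and Dntt, the terminal transferase that adds bases at junctions, did not pass the test (adjusted p = 0.945 and 0.900).

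Of 11 tested factors of the T lineage, 4 rose and 4 fell (36.4% each, against the same 15.6% and 21.5% over all entries). Notch1, the receptor that starts T cell development, rose from 98.5, 114 and 79.9 TPM to 386 and 336 TPM (limma adjusted p = 1.4e-04). Tcf7, Runx1 and Runx3 rose by 0.92, 0.40 and 0.86 on the log2 scale, calls that held in 8, 8 and 11 of 14 alternatives (adjusted p up to 0.223, 0.244 and 0.0893). Each lost its call without either Pax5(-/-) library and without the filter on low values. Lef1 fell from 481, 595 and 530 TPM to 7.63 and 4.62 TPM (limma adjusted p = 2.6e-06), and Ets1, Id3 and Dtx1 fell as well. Dtx1 was below 1 TPM on average in Pax5(-/-) cells and entered the test only through Pax5(+/+) cells. Bcl11b, which is required for T lineage commitment, was at 0 to 0.0561 TPM and Gata3 at 0.118 to 0.691 TPM over the 5 libraries, and neither reached the level for the test.

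Markers of T cells went in both directions. The summed level of 16 T cell marker genes was 96.2 to 113 TPM in Pax5(+/+) and 38.3 and 42.5 TPM in Pax5(-/-) libraries. This sum was carried by Thy1, Cd5 and Ubash3a, and the other 13 genes, split off after the values had been seen, went the opposite way, with 2.02, 2.57 and 3.31 TPM in Pax5(+/+) against 14.8 and 18.2 TPM in Pax5(-/-) libraries. Of the 8 tested, Cd4, Cd6, Icos, Ctla4 and Trat1 were higher (62.5%) and Thy1, Cd5 and Ubash3a were lower (37.5%) in Pax5(-/-) cells. Over all entries tested these shares were 15.6% and 21.5%. The 5 higher genes were below 1 TPM on average in Pax5(+/+) cells and entered the test only through the genotype in which they were high, so their count is a description. Cd3e, Cd8b1 and Themis were at 0 in both Pax5(-/-) libraries, but in Pax5(+/+) cells Cd8b1 was at no more than 0.0877 TPM and Themis at no more than 0.0307 TPM. Among 15 markers of natural killer and innate lymphoid cells, whose sum was 11.1 to 23.7 TPM in Pax5(+/+) and 28.8 and 38.6 TPM in Pax5(-/-) libraries, 7 were tested, with Nkg7, Gzma and Icos higher (42.9%) and Prf1 and Klrb1c lower (28.6%), beside 15.6% and 21.5% of all entries tested. Gzma and Icos again entered only through Pax5(-/-) cells. Nkg7, at 1.71, 5.35 and 5.12 TPM against 17.9 and 22.7 TPM, carried the difference in the sum, and the other 14 genes overlapped between the genotypes, at 9.43 to 18.4 TPM against 10.9 and 16.0 TPM. Without Pax5(-/-) replicate 2, 1 marker was higher, and without Pax5(+/+) replicate 2 or Pax5(-/-) replicate 1 none was lower. The defining marker Ncr1 was at 0.0865, 0 and 0.167 TPM in Pax5(+/+) and at 0 in both Pax5(-/-) libraries. Markers of plasmacytoid dendritic cells summed to 927 to 1009 TPM against 377 and 512 TPM. Of the 7 tested, 2 were higher (28.6%) and 3 lower (42.9%), beside 15.6% and 21.5% of all entries tested. Most of the summed level came from Spib, Irf8 and Tcf4, which were lower and which B cells also express. Of the other markers, Bst2 and Ly6c2 overlapped between the genotypes and did not pass the test (limma adjusted p = 0.1001 and 0.8576). Cox6a2 rose from a mean of 4.48 TPM to 30.7 TPM (limma adjusted p = 8.7e-04). Siglech, a receptor by which these cells are recognised, was at 0.106, 0.570 and 1.12 TPM in Pax5(+/+) and at 1.79 and 9.06 TPM in Pax5(-/-) cells (limma adjusted p = 0.0311, past the threshold in 9 of 14 alternatives), having entered the test through Pax5(-/-) cells. Markers of myeloid cells summed to 39.4 to 110 TPM against 55.2 and 64.1 TPM. Of the 5 tested, 0 were higher and 2 lower (40%), beside 15.6% and 21.5% of all entries tested. Elane and Itgam were lower (limma adjusted p = 0.0163 and 0.0215), past the threshold in 10 and 9 of 14 alternatives. Mpo (mean 21.6 TPM in Pax5(+/+) against 39.9 TPM in Pax5(-/-) cells), Lyz2 (40.0 against 13.8 TPM) and Csf1r did not pass. The part of other cells in the Cβ2 and Jβ2 reads was not tested, and in these bulk libraries more cells that express a transcript and more transcript per cell cannot be told apart.

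The Meox2-cre pro-B cells are described apart, because their reads were aligned with other software to another genome build and counted on other entries. Their T cell receptor entries summed to 13.2, 13.9 and 12.9 TPM (62, 73 and 41 reads), and 249 of 268 entries were at 0 in all 3 libraries. The Cβ2 entry Trbc2 was the highest on average, at 6.02, 4.84 and 2.18 TPM (35, 29 and 13 reads). Trac was second, at 2.17, 3.71 and 2.60 TPM (17, 30 and 21 reads), and was detected in all 3 libraries. Trbc1 was at 0.318, 0.308 and 0 TPM, and Trdc had 1 read in replicate 2. Of the J entries only Trbj2-7 (0, 2.46 and 4.93 TPM), Trbj2-6 (2.48, 0 and 0 TPM) and Traj58 (0, 0 and 1.84 TPM) had reads, 5 in all. The Vβ entries held 5 of 43, 2 of 34 and 3 of 18 beta reads, and Trbv13-2 was the only V entry with reads in all 3 libraries (1.05, 0.340 and 0.681 TPM). Among the other entries with reads, Trgv2 had 3 reads in replicate 2 and Tcrg-C1 had 1 and 2 reads in replicates 1 and 2. Cd3e was at 0.245, 0.0793 and 0.0795 TPM in these libraries.

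**Figure D5:**
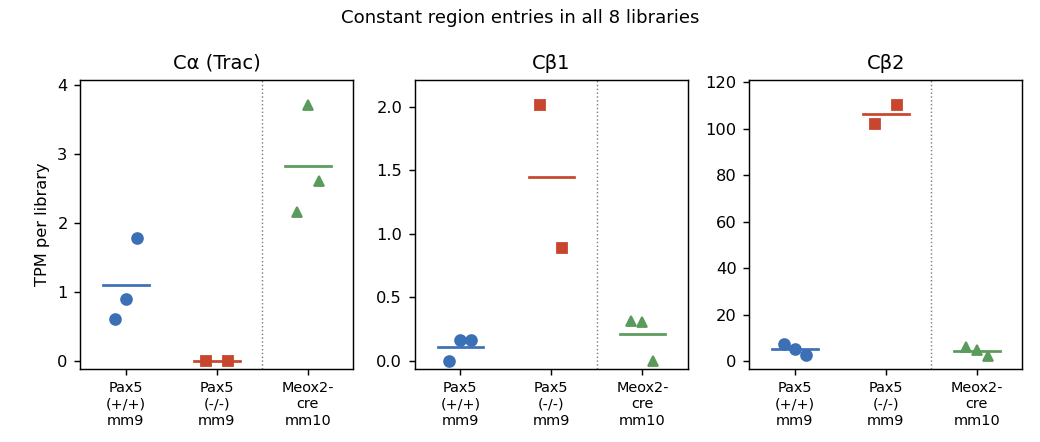
TPM of the constant region entries of the alpha chain, Cβ1 and Cβ2 in all 8 libraries, 1 point per library and a line at the mean. The vertical scale differs between the panels, and the dotted line separates the mm9 from the mm10 tables, which were made with different software. Cβ2 is at 102 and 110 TPM in Pax5(-/-) cells and between 2.18 and 7.32 TPM in the other 6 libraries, and Trac is at 0 in Pax5(-/-) cells alone.

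The alpha chain entries differ between these tables. The Trac entry has a recovered length of 413 bases in the mm9 and of 935 bases in the mm10 tables, whereas the Cβ2 entry has 692 bases in both. Trac held 0.117, 0.163 and 0.320 RPM in Pax5(+/+), against 0.852, 1.48 and 1.02 RPM in Meox2-cre libraries. RPM is not divided by length, and a longer entry can collect more reads from the same transcript. No test was made between them, because entry length, aligner, build, counting settings, mice and pooling differ together and cannot be told apart.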

How the data were processed

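The authors deposited TPM values of 8 RNA-seq libraries. Per the study's methods, ribosomal RNA reads were removed, and reads of the Pax5(+/+) and Pax5(-/-) libraries were aligned to mm9 with TopHat 1.4.1a, those of the Meox2-cre libraries to mm10 with STAR 2.4.2a. Reads per gene were counted with featureCounts 1.5.0, for mm9 with default settings, which use no strand. For mm10 the methods name a paired-end mode, whereas the supplementary list of the study gives single-end reads. The mm10 counts, called reads here, may therefore be read pairs. The T cell receptor entries and the gene lists were chosen with earlier results of these data known. Named are all constant entries, every entry with an adjusted p below 0.05, the highest V, D and J entries of each genotype, the highest of the mm10 tables and the list genes. Reads were recovered by finding the TPM of 1 read per base in each library and the smallest length that makes all values of an entry whole. Totals are therefore lower limits. Genotypes were compared on log2(TPM + 0.5) for entries with a mean above 1 TPM in either genotype, with limma 3.58.1 in R 4.3.3 (eBayes with trend, Benjamini-Hochberg over 12066 entries). The fit was tested on simulated data. Fold changes on this scale understate the change of low entries. Sums were compared by exact permutation (scipy 1.17.1). Figures used matplotlib 3.10.9. ChIP-seq samples are not analysed here.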

Additional observations from a re-analysis of the deposited data

How the results depend on the processing

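The call of TCRB_Cb2 and its direction held under all 14 alternatives (log2 change 4.00 to 4.65, adjusted p from 2.0e-05 to 0.0227). Jβ2-1, Jβ2-3 and Jβ2-7 also passed in all 14. Jβ2-1 and Jβ2-3, at 0 in every Pax5(+/+) library, entered each filtered fit through Pax5(-/-) cells, so their passes are a description. Median-ratio scaling moved the median log2 change of all entries from -0.12 to -0.0031 and turned no T cell receptor entry. No paired analysis was made because nothing in the labels links a Pax5(+/+) library to a Pax5(-/-) library.

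With no threshold on the level, 9 T cell receptor entries were called higher and 1 lower. With the filter at 5 TPM, 5 had an adjusted p below 0.05 and were higher and 0 lower, and with no filter 0 were lower, where TCRB_Cb1 (log2 change 1.62) and Trac (-1.61) lost their calls. Leaving out each library gave 0 to 1 lower entries and, where Trac was tested, a change of -1.84 to -1.61 (untested without Pax5(+/+) replicate 3, where it was -1.32). The lower entry was lost without Pax5(+/+) replicate 3 and without either Pax5(-/-) library. The gamma sum, 0.39 on the log2 scale, turned to -0.15 without its highest entry and ranged from -0.15 to 0.93 with each library left out, both sides from 1 or 2 reads.

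With no filter, 3 T cell markers, 1 natural killer and innate lymphoid marker and 5 pathway genes were higher, and 0 natural killer and innate lymphoid markers and 6 pathway genes were lower. With the filter at 5 TPM, 0 T cell markers and 1 natural killer and innate lymphoid marker were higher and 1 of the latter was lower, and 1 was also lower without the trend and in limma-voom. With each library left out, 1 to 3 natural killer and innate lymphoid markers were higher and 0 to 2 lower, and 4 to 7 pathway genes were higher and 6 to 11 lower. The causes were not tested. Of 297 alternative values, 264 stayed, for tested entries in direction and call, for sums in direction, and for counts within 1.5 times.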
